A study of Drosophila melanogaster with 41 samples.

Results

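The 9 genes described here are the homeobox genes that assign segment identity in Drosophila melanogaster together with their cofactors: homothorax (hth), extradenticle (exd), labial (lab), Deformed (Dfd), Sex combs reduced (Scr), Antennapedia (Antp), Ultrabithorax (Ubx), abdominal-A (abd-A) and Abdominal-B (Abd-B). They were found by their FlyBase identifiers among 17027 gene entries of exon-bin count tables, and all 9 had an entry of their own. An exon bin is a stretch of exon between neighbouring annotated exon edges. The 9 genes were divided into 87 of the 84619 bins, from 4 bins for lab and Scr to 22 for hth. For each gene, the total count over its bins and the share of that total on its distal 3′ UTR were followed through 41 mRNA-seq libraries in 11 groups.

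All libraries came from males, and each was made from a pool of 12 to 15 individuals. Whole embryos collected 14–16 h after egg laying (AEL) were wild type (w1118), delta-elav (the elav coding sequence deleted), elavmin (a frameshift that disrupts the third RNA-binding domain and leaves very little truncated protein) or delta-elav,fnenFNE, with 4 libraries each. The fnenFNE allele is a tagged form of the elav paralogue fne that makes only the nuclear protein. Adult heads, labelled 72 h and described in the paper as from flies 3 days old, were wild type, elavmin or delta-elav,fnenFNE, with 3 libraries each. Embryos 7–8 h AEL were fnenFNE, which served as the control of that age, elavmin,fnenFNE, delta-elav,fnenFNE or elavnFNE, in which the nuclear FNE sequence replaces the coding sequence of elav, with 4 libraries each. The elavnFNE flies also carry an altered fne gene. Hence no 7–8 h group was wild type at fne, and these libraries had shorter reads than the others. Flies were kept over GFP-marked balancers and mutant embryos were picked by the absence of GFP.

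Hox proteins are homeodomain transcription factors that set the identity of segments along the body axis, and in the nervous system they also decide which neurons and neural stem cells are kept. Exd and Hth belong to the TALE class of homeodomain proteins. Hth brings Exd into the nucleus, and Exd binds DNA together with Hox proteins. ELAV is an RNA-binding protein of neurons that lets transcription run past a proximal poly(A) site, so that neurons make mRNAs with longer 3′ UTRs and neuron-specific exons. Its paralogue FNE can do this when it is in the nucleus.

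Library depth ranged from 17668742 to 51377771 counts over all bins. The bin that holds the coding sequence of elav took 33.2–36.8% of elav counts in wild-type late embryos and 35.3–40.6% in elavmin, against 17.8–19.2% in delta-elav and 15.6–19.2% in delta-elav,fnenFNE. In heads the share was 33.1–37.6% in wild type and 10.1–15.3% in delta-elav,fnenFNE. In 7–8 h embryos it was 41.1–45.2% in the control, 19.1–21.3% in delta-elav,fnenFNE and 11.6–12.9% in elavnFNE. In elavmin heads it was 38.2–41.6%, and in elavmin,fnenFNE at 7–8 h 41.2–44.7%. Counts on this bin did not fall in delta-elav late embryos (3008–3635 against 1984–2354 in wild type), and total elav counts rose there by 1.76 ± 0.05 on the log2 scale and in delta-elav,fnenFNE heads by 2.22 ± 0.12. The lower share thus stands beside a higher total, and the bin does not show the deletion as a loss of counts. Not all genes of the marker lists were found among the gene entries, and those not found were not examined. Found were 7 of 10 for neurons, 7 of 8 for muscle and 4 of 5 each for glia and neuroblasts. For fat body 3 of 4 were found, and for photoreceptors all 6. The CPM (counts scaled to a fixed library size within a stage) of the 7 neuronal genes was summed. The sum was 1850–2069 in wild-type late embryos, 1405–1694 in delta-elav, 1590–1863 in elavmin and 1536–1730 in delta-elav,fnenFNE. None of these 7 genes was at 0. In heads the 6 photoreceptor genes summed to 48875–50909 CPM in wild type, 26906–27782 in elavmin and 182–214 in delta-elav,fnenFNE, whereas 7 muscle genes summed to 7768–9466, 8732–10577 and 12975–13247. The 7 neuronal genes summed to at most 17.2 CPM in any 7–8 h library, where 4 neuroblast genes summed to 895–1078. Replicates 3 and 4 of the delta-elav,fnenFNE late embryos and replicate 2 of the delta-elav,fnenFNE heads had more reads towards the 3′ end of genes, with a median shift of 0.20 to 0.37 on the log2 scale over 2603 genes. Calls and distal shares of the 9 genes were also computed without these 3 libraries, whereas the differences between stages and the pathway lists were not.

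Of the 9 genes, 4 had a neuronal 3′ UTR among the 271 neuronal 3′ UTRs deposited by the authors, and all 4 lie on the minus strand of chromosome 3R. For hth it was a single bin of 2286 nt (3R:10507561-10509846). For abd-A it measured 413 nt (3R:16807214-16807626), for Abd-B 455 nt (3R:16927212-16927666) and for Ubx 1138 nt in 2 bins (3R:16656623-16657760). The study chose these regions partly on the libraries analysed here, so their change is not independent evidence of its direction. For the other 5 genes the bin nearest the 3′ end was used. In exd it was a 513-nt bin on the plus strand of chromosome X (X:15995997-15996509) and in Antp a 1412-nt bin (3R:6896253-6897664), while in lab, Dfd and Scr the last bin also holds coding sequence.

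The sequences at the proximal and distal ends of the 4 neuronal 3′ UTRs are shown because the measured share depends on which end a transcript uses. Each is 30 bases of the transcribed strand, 5′ to 3′, from the RefSeq Release 6 genome (dm6), and capitals mark AATAAA and ATTAAA, the commonest poly(A) signals.
hth proximal end (3R:10509847-10509876): aaacaaaatgcatatatgagaaaatatttg
hth distal end (3R:10507561-10507590): taaattatgaAATAAAagattatgaaaacc
abd-A proximal end (3R:16807627-16807656): tgcgattttaaaatgaatgcgaaaaaaatt
abd-A distal end (3R:16807214-16807243): tttcatgcaaacagatttcagccaagggga
Abd-B proximal end (3R:16927667-16927696): caaaaatatacacacaattcaaaatatccc
Abd-B distal end (3R:16927212-16927241): tatgtcttaagAATAAATAAAttattatgt
Ubx proximal end (3R:16657761-16657790): aaaacaaaaaaaaaaaacaatgagaaatcg
Ubx distal end (3R:16656623-16656652): ataaATTAAAcaaaacgatttaaataattt

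Neither hexamer was found in the 30 bases before any of the 4 regions. Over all 271 regions, AATAAA was present in 28.8% of such windows and ATTAAA in 9.96%. At the distal ends, hth had 1 AATAAA, Abd-B had 2 that overlap, Ubx had 1 ATTAAA and abd-A had neither, against 39.1% and 7.38% of all regions. The letters TTTNTTT occurred in the first 100 bases past the proximal end in 80 of 271 regions (29.5%). Of the 4 genes, hth had 2 such matches and the others none. The search covered the transcribed strand only.

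For the 9 genes, CPM was scaled within each stage (TMM scaling), and levels of different genes were compared as CPM per kb of exon bins. The length sums all annotated bins of a gene, used or not, and the order depends on it. For Abd-B the 11791 nt include a 5′ UTR bin of 4933 nt. That bin was not among those tested between wild-type heads and late embryos, so Abd-B may rank too low. In wild-type late embryos the order was exd (56.1 ± 2.26 CPM per kb, SD, n = 4), abd-A (31.4 ± 0.919), hth (26.6 ± 1.14), Ubx (13.9 ± 0.681), Antp (11.1 ± 0.575), Scr (8.73 ± 0.584), lab (7.25 ± 0.399), Abd-B (6.31 ± 0.238) and Dfd (5.04 ± 0.405). No neighbours in this order overlapped. In the 7–8 h control, exd again stood highest (102.7 ± 0.820), followed by abd-A (52.2 ± 2.47), hth (38.6 ± 4.71) and Ubx (28.0 ± 1.13). Antp (16.2 ± 0.896), Scr (14.24 ± 1.09) and Abd-B (12.9 ± 0.480) came next and overlapped as neighbours, and Dfd (8.56 ± 0.948) and lab (4.24 ± 0.156) were lowest. Wild-type heads had the same first gene but another order behind it, with exd at 47.1 ± 2.06 (n = 3), hth at 20.4 ± 0.860, Dfd at 12.7 ± 0.333, Scr at 4.25 ± 0.168 and lab at 1.49 ± 0.0923. Antp (0.411 ± 0.0601) and Ubx (0.167 ± 0.0294) followed, and abd-A and Abd-B had 0 counts in all 3 wild-type head libraries.

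**Figure D1:**
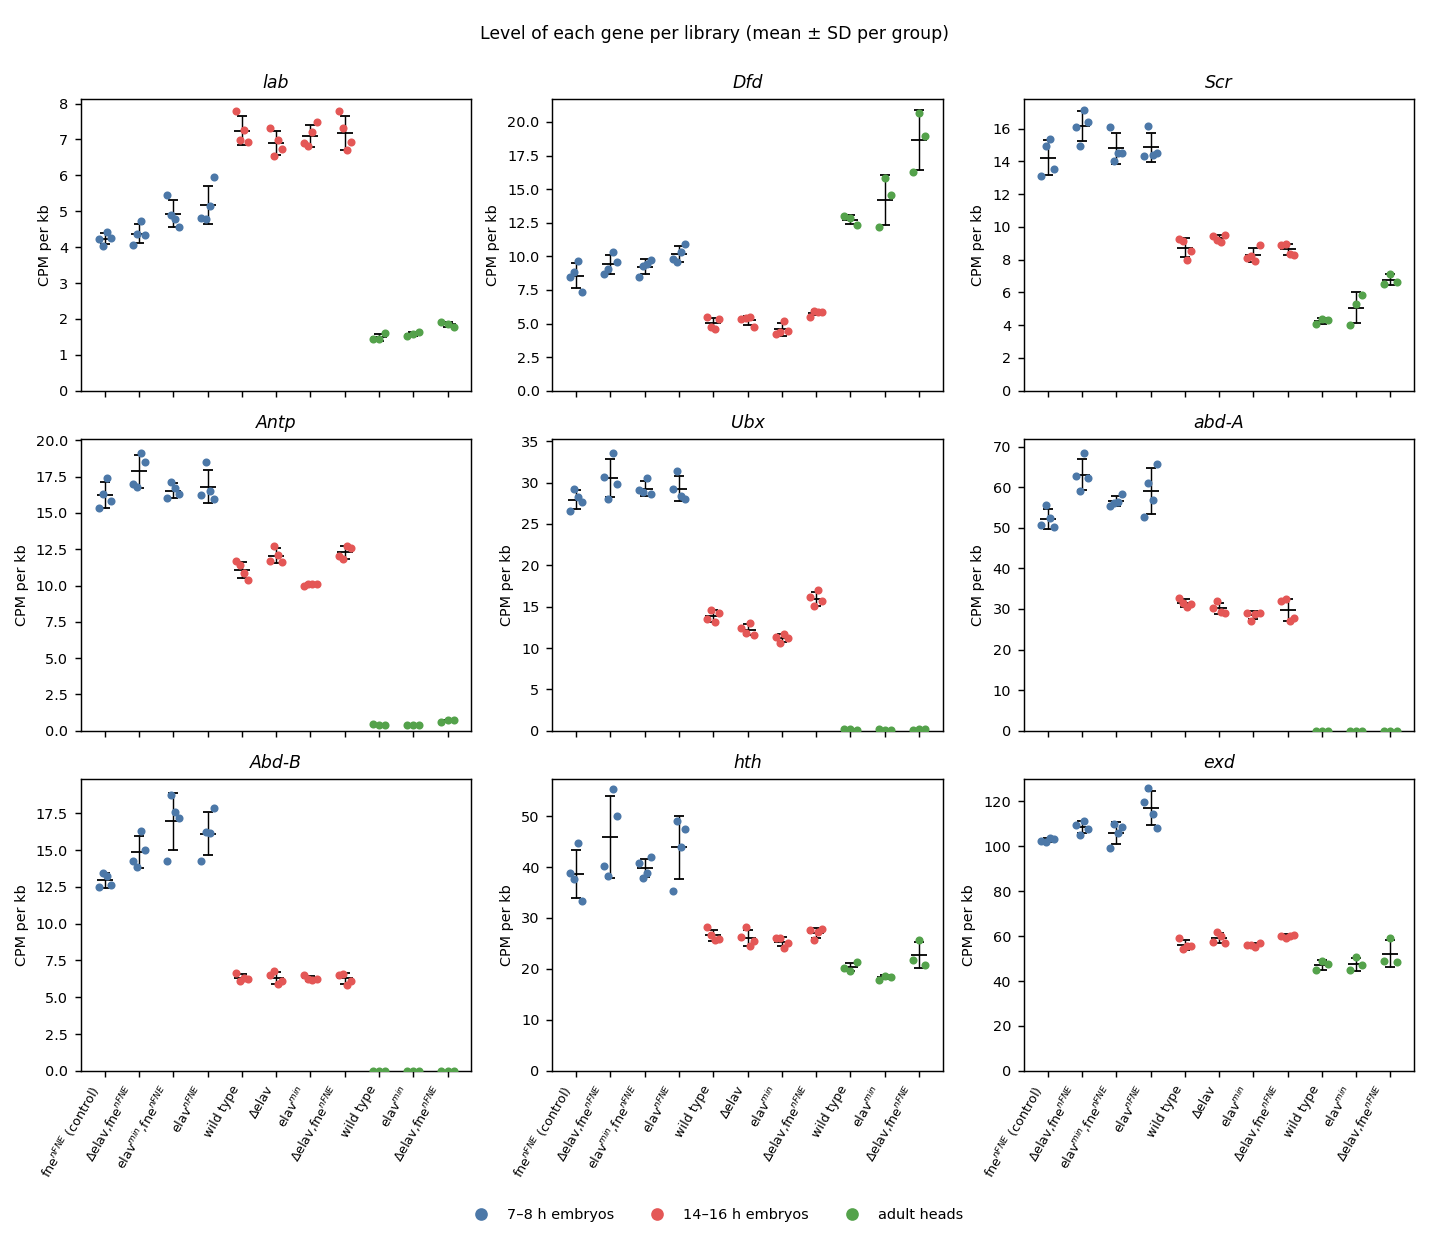
Level of each of the 9 genes in CPM per kb (vertical axis) in every library, grouped by genotype, with the mean and SD of each group; Δelav stands for delta-elav. Heads keep exd and hth at 47.1 and 20.4 CPM per kb in wild type, Dfd is higher there than in late embryos, and abd-A, Abd-B, Ubx and Antp lie close to 0.

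Wild-type heads were compared with wild-type late embryos to describe where in development each gene is used. This comparison changes the tissue as well as the age, and 85.1% of all genes tested passed an adjusted p of 0.05 (edgeR's quasi-likelihood test). Dfd, which patterns head segments, was the only one of the 9 that rose (log2 fold change 1.04 ± 0.08, SE). Expression of the cofactors fell by 0.68 ± 0.05 (hth) and 0.55 ± 0.05 (exd) on the log2 scale. Scaled within each stage instead of between them, their means differed by −0.38 and −0.25. The head and labial genes lab and Scr fell by 2.58 ± 0.09 and 1.34 ± 0.07, and the thoracic genes Antp and Ubx by 5.05 ± 0.09 and 6.67 ± 0.11. With 3 counts over all 3 libraries as a floor, abd-A was at least 3791-fold lower in wild-type heads than in wild-type late embryos, and Abd-B at least 1638-fold lower. Fewer cells of a type and less RNA per cell cannot be told apart in these bulk samples.

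In late embryos, the distal 3′ UTR of hth took 3.15, 3.42, 3.74 and 3.48% of hth counts in the 4 wild-type libraries. In delta-elav it took 0.326, 0.419, 0.424 and 0.482%, and in elavmin 0.480, 0.591, 0.400 and 0.541%. Every mutant library thus lay below every wild-type library, with 29 to 68 counts on the region against 381 to 405. Relative to the rest of the gene, usage of the bin fell by 3.06 ± 0.18 on the log2 scale in delta-elav (adjusted p = 8.6e-58, edgeR's exon usage test) and by 2.76 ± 0.17 in elavmin (adjusted p = 6.7e-52). Over the bins tested in the 2 comparisons, 1.51% and 1.39% passed the adjusted p of 0.01 used for bins. Total hth counts stayed close to wild type (log2 fold change −0.02 ± 0.05 and −0.06 ± 0.04, adjusted p = 0.80 and 0.27). Measured against the last coding exon and its proximal 3′ UTR alone, the distal region held 25.3 ± 1.29% in wild type, 3.80 ± 0.646% in delta-elav and 4.47 ± 0.664% in elavmin.

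The distal region of abd-A, which specifies abdominal segments, took 3.89, 3.55, 3.56 and 3.94% of abd-A counts in wild type. In delta-elav the shares were 0.548, 0.622, 0.505 and 0.726%, and in elavmin 1.06, 0.792, 0.743 and 0.819%. Usage fell by 2.64 ± 0.20 (adjusted p = 3.3e-37) and by 2.14 ± 0.18 (adjusted p = 6e-29) on the log2 scale, with no overlap between mutant and wild-type shares. All elavmin shares also lay above all delta-elav shares, but the test between these mutants gave a log2 difference in usage of 0.50 ± 0.22 with an adjusted p of 1.

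Abd-B, the most posterior Hox gene, showed a smaller change. Its distal region took 3.57, 3.11, 3.13 and 2.68% of counts in wild type, 1.36, 1.36, 1.62 and 0.945% in delta-elav and 1.87, 1.45, 0.849 and 1.35% in elavmin. Mutant and wild-type libraries did not overlap. The change in usage was −1.24 ± 0.19 (adjusted p = 4.1e-08) in delta-elav and −1.18 ± 0.19 (adjusted p = 6.1e-08) in elavmin.

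In Ubx, which specifies the posterior thorax and first abdominal segment, the distal region held a much larger share of counts in every group. The shares were 27.4, 30.3, 28.4 and 29.2% in wild type, 21.2, 21.1, 23.1 and 19.6% in delta-elav and 22.3, 23.1, 23.9 and 23.6% in elavmin. Both mutants lay below wild type in every library. Usage of the proximal bin of the region, the longer of its 2 bins, fell by 0.56 ± 0.11 (adjusted p = 9.4e-05) in delta-elav, whereas the −0.32 ± 0.10 in elavmin did not pass (adjusted p = 0.081). The difference between delta-elav and elavmin did not pass either (0.24 ± 0.12, adjusted p = 1). The other bin of the region had changes of −0.29 ± 0.11 and −0.30 ± 0.11 that did not pass (adjusted p = 0.26 and 0.21).

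The last bin was not called in any of the 5 genes without a deposited neuronal 3′ UTR. Log2 changes in usage were between −0.26 (exd) and 0.11 (Dfd) in delta-elav and between −0.18 (exd) and 0.03 (lab) in elavmin, and every adjusted p was 1. In wild type the last bin took 1.06–2.06% of exd counts, 10.2–13.8% of Antp, 25.0–27.6% of lab, 23.8–25.0% of Dfd and 54.9–58.4% of Scr. Of the 11 Antp bins 6, the last included, overlap the gene CG46458 on the same strand, so counts of the pair cannot be separated there. The same limit holds for all Antp totals and levels given here.

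**Figure D2:**
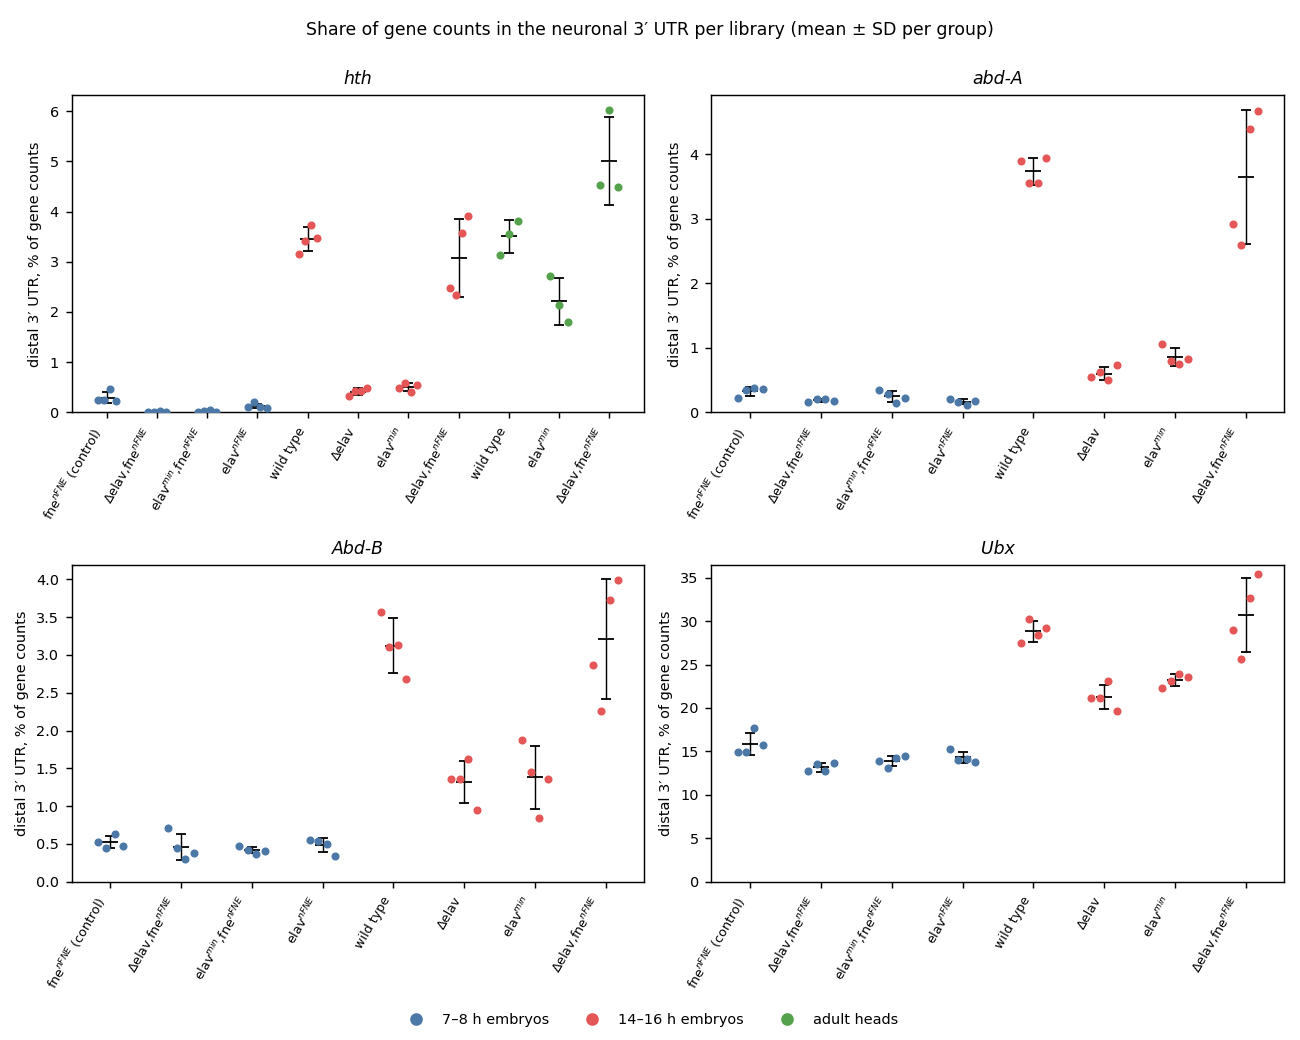
Share of a gene's counts on its neuronal 3′ UTR (percent, vertical axis) in every library, with the mean and SD of each group, for hth, abd-A, Abd-B and Ubx; heads are drawn for hth only. Late embryos of delta-elav and elavmin sit below all wild-type late embryos in each of the 4 genes, and delta-elav,fnenFNE spans the wild-type values. The highest shares of that group are from replicates 3 and 4, which have more reads towards 3′ ends. Its other libraries lie below all wild-type late embryos for hth and abd-A.

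With nuclear FNE added, none of the 9 distal bins was called against wild type in late embryos by edgeR, and 0 had an unadjusted p under 0.05. The share of hth was 2.48, 2.34, 3.58 and 3.91% in the 4 delta-elav,fnenFNE libraries, and that of abd-A 2.91, 2.59, 4.39 and 4.67%. In each of the 4 genes replicates 3 and 4, which have more reads towards 3′ ends, gave the highest shares of this group. Changes in usage against wild type were −0.15 ± 0.12 (hth), −0.07 ± 0.15 (abd-A), 0.02 ± 0.17 (Abd-B) and 0.03 ± 0.12 (Ubx), each with an adjusted p of 1, and 0.705% of all bins tested were called. Without the 2 libraries the mean shares were 2.41% for hth, 2.75% for abd-A, 2.56% for Abd-B and 27.3% for Ubx, against 3.45, 3.74, 3.12 and 28.8% in wild type. Changes in usage were then −0.51 for hth (adjusted p = 0.012, just over the threshold), −0.44 for abd-A (0.19), −0.29 for Abd-B (1) and −0.14 for Ubx (1). Measured against the last coding exon and its proximal 3′ UTR, hth had 21.4 ± 1.96% in all 4 delta-elav,fnenFNE libraries. Each of them (19.7–23.4%) lay below every wild-type library (23.5–26.5%). By that measure abd-A (6.35–8.95% against 8.45–9.31%), Abd-B and Ubx overlapped with wild type.

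Against delta-elav, the distal bins of all 4 genes were used more in delta-elav,fnenFNE. The log2 differences were 2.90 ± 0.22 for hth (adjusted p = 4.8e-35), 2.57 ± 0.28 for abd-A (1.9e-16), 1.26 ± 0.22 for Abd-B (4.8e-06) and 0.59 ± 0.13 for Ubx (0.0024), with 0.604% of all bins called. Shares did not overlap between these groups. How many of all bins lack overlap was not computed, here or in the other comparisons of shares. Without the 2 shifted libraries, hth and abd-A remained called, whereas Abd-B (0.95, adjusted p = 0.030) and Ubx (0.42, adjusted p = 0.35) did not. Over the alternatives tried, the adjusted p ranged from 2.2e-07 to 0.030 for Abd-B and from 0.00014 to 0.35 for Ubx. No distal bin was called between elavmin and delta-elav, where 0.361% of all bins were called and 2 of the 9 distal bins had an unadjusted p under 0.05. For hth the difference was 0.29 ± 0.20.

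In 7–8 h embryos, when neuronal differentiation starts, the distal 3′ UTR of hth was rare in the fnenFNE control, at 0.242, 0.243, 0.462 and 0.222% of hth counts (21 to 63 counts). It had 0, 0, 4 and 0 counts in delta-elav,fnenFNE and 0, 2, 6 and 0 in elavmin,fnenFNE, against hth totals of 9570 to 13845 counts in these libraries. A library with no count allows a share of up to 0.0276% at most. Both groups lay below the control in every library. Usage fell by 5.03 ± 0.84 on the log2 scale in delta-elav,fnenFNE (adjusted p = 2.2e-06, 0.634% of bins called) and by 4.07 ± 0.55 in elavmin,fnenFNE (adjusted p = 8e-10, 0.153% of bins called). These fitted sizes rest on few counts, and over the alternatives they ranged from −8.39 to −4.61 and from −5.41 to −3.66. Between these mutants no distal bin was called by edgeR (0.108% of all bins), 1 of 8 had an unadjusted p under 0.05, and the hth bin did not pass the count filter.

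The elavnFNE embryos had 0.101, 0.1998, 0.113 and 0.0963% of hth counts on the distal region, with 11 to 25 counts. These shares lay below all control libraries and above all delta-elav,fnenFNE libraries. The test against the control gave −1.22 ± 0.43 with an adjusted p of 0.48, and no distal bin was called by edgeR (0.313% of all bins), with 2 of 9 under an unadjusted p of 0.05. Against delta-elav,fnenFNE, none of 8 distal bins was called either (0.294% of all bins), and the hth bin was not tested. The exd bin had an unadjusted p under 0.05 there, and its difference of −0.88 ± 0.21 stood at the threshold (adjusted p = 0.010, in a range from 0.00051 to 0.26).

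Of the bithorax complex genes, abd-A and Abd-B had under 1% of their counts on the distal region at 7–8 h, and Ubx had more. For abd-A, the control had 0.218, 0.341, 0.380 and 0.365% and delta-elav,fnenFNE 0.166, 0.211, 0.206 and 0.174%, just below the control. The change was −0.75 ± 0.32 (adjusted p = 0.71), and in elavnFNE it was −0.95 ± 0.33 (adjusted p = 0.41). Abd-B overlapped between the control (0.445–0.624%) and every mutant group. Ubx had 15.8 ± 1.28% in the control and 13.2 ± 0.507% in delta-elav,fnenFNE, with a change in usage of −0.32 ± 0.12 that did not pass (adjusted p = 0.34).

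The last bin of exd behaved differently and rose in delta-elav,fnenFNE at 7–8 h, by 0.93 ± 0.19 (adjusted p = 0.00037). Its share was 0.918, 1.96, 1.31 and 1.35% in the control and 1.73, 2.08, 4.17 and 2.41% in delta-elav,fnenFNE, so the groups overlapped and replicate 3 stood highest. The call was lost without that replicate (0.62, adjusted p = 0.011) and without replicate 1 of the control (0.75, adjusted p = 0.033). Its adjusted p ranged from 8.7e-05 to 0.033 over the alternatives. Elsewhere the exd bin varied with single libraries, up to 8.22% in the shifted replicate 2 of the delta-elav,fnenFNE heads.

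In adult heads, hth was the only gene of the 4 with enough counts to follow its distal 3′ UTR. The share was 3.14, 3.56 and 3.81% in wild type, 2.71, 2.13 and 1.80% in elavmin and 4.53, 6.02 and 4.48% in delta-elav,fnenFNE. The groups did not overlap. Usage fell by 0.68 ± 0.17 in elavmin (adjusted p = 0.0055, 0.919% of bins called), but the call was lost without replicate 2 (−0.66) or 3 (−0.54) of elavmin, without replicate 2 (−0.67) or 3 (−0.61) of wild type, and when all head groups were fitted together. The adjusted p ranged from 0.00099 to 0.32 over the alternatives. In delta-elav,fnenFNE the change was 0.53 ± 0.25 and did not pass (adjusted p = 0.66, 0.995% of bins called), and without the shifted replicate 2 the mean share was 4.51%. The distal bins of lab, Dfd, Scr and exd were called in neither comparison, with 1 and 2 of 5 distal bins under an unadjusted p of 0.05, and those of Antp, Ubx, abd-A and Abd-B were not tested there.

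**Figure D3:**
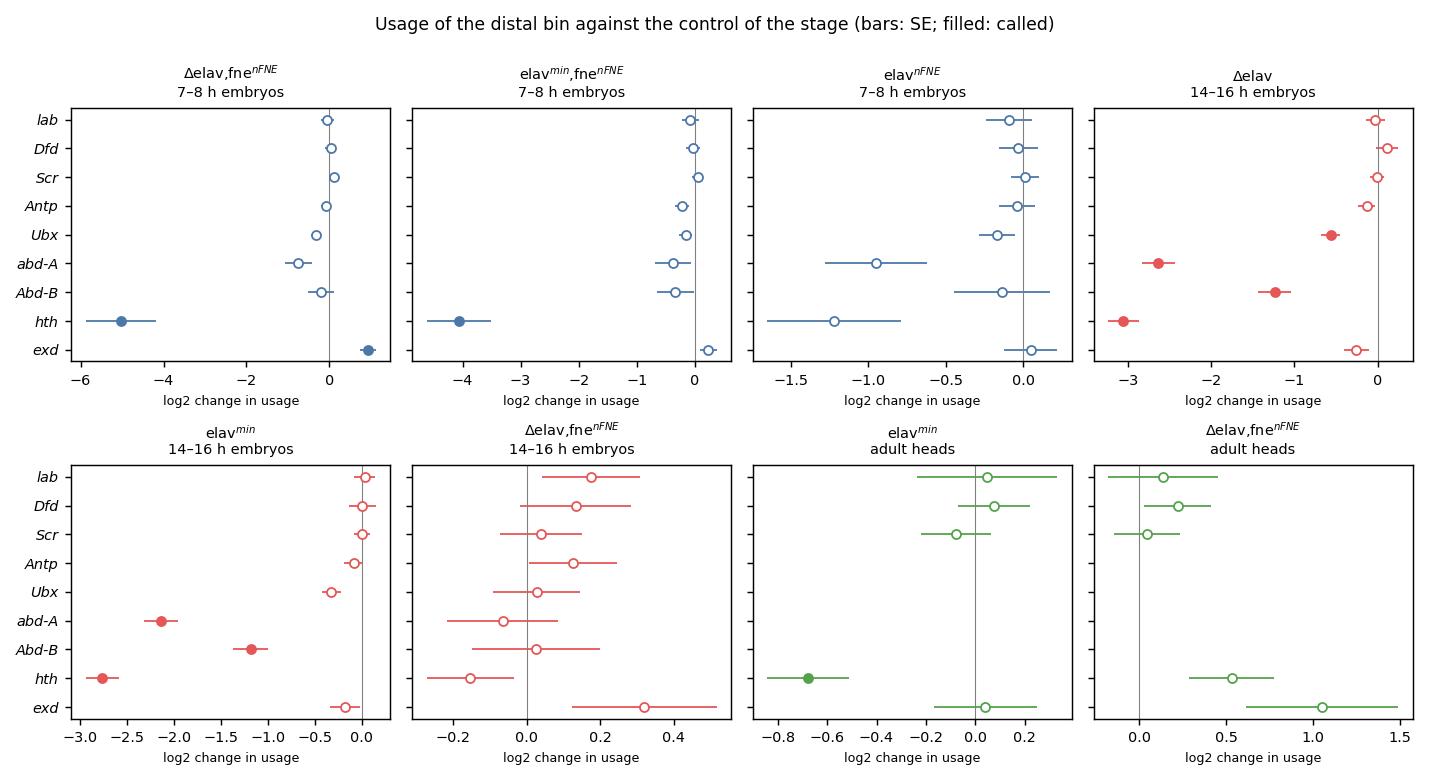
Log2 change in usage of the distal bin of each gene against the control of its stage (horizontal axis, each panel with its own range), with the SE as a bar and filled points for an adjusted p under 0.01. The point of hth lies farthest below 0 in both 7–8 h deletion and frameshift groups (−5.03 and −4.07) and in late delta-elav and elavmin embryos (−3.06 and −2.76), and no point is filled in late delta-elav,fnenFNE embryos.

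Whether a change differed between stages was tested as an interaction. The effect of elavmin on the hth distal bin was smaller in heads than in late embryos, with a log2 difference of 2.08 ± 0.21 (adjusted p = 6.6e-19), where 0.378% of all bins were called. For delta-elav,fnenFNE, the effect at 7–8 h, measured against fnenFNE, was larger than that in late embryos, measured against wild type, with a fitted difference of −4.88 (adjusted p = 1.2e-12, 0.336% of bins called). With 0, 0, 4 and 0 counts in the mutant libraries at 7–8 h, this fit gives no size. Between heads and late embryos the difference for hth did not pass (0.68 ± 0.25, adjusted p = 0.38, with 0.552% of bins called), and the distal bins of abd-A and Abd-B had no counts in these heads to test. In wild type itself, heads and late embryos had similar shares of the hth distal region (3.51 ± 0.34% and 3.45 ± 0.24%), and the difference in usage was 0.03 ± 0.12 (adjusted p = 0.93).

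Ubx has 3 optional coding elements between its long exons, a 27-nt extension of the first exon and the microexons mI and mII of 51 nt each. The mRNA form without both microexons is known as the main Ubx form of the nervous system. All 3 elements begin with the letters of a 5′ splice site, which the sequences show in capitals (transcribed strand, 5′ to 3′, RefSeq Release 6, with the first 30 bases of each microexon).
Extension of the first exon (3R:16732698-16732724): GTGAGtgtcctgaagatccgaccaaaa
Microexon mI (3R:16725277-16725306): GTAAGataagatctgatttaacacaatacg
Microexon mII (3R:16710583-16710612): GTAAGagatactcagaatctcttgcgggct

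Of 84510 bins, 0.986% begin with GTAAG and 0.897% with GTGAG. In late embryos microexon mI took 1.07, 1.72, 2.14 and 1.94% of Ubx counts in wild type. In delta-elav it took 4.26, 3.04, 4.01 and 3.34%, and in elavmin 4.47, 3.19, 4.32 and 4.19%, without overlap. Usage rose by 1.11 ± 0.21 (adjusted p = 2.2e-05) and 1.24 ± 0.20 (adjusted p = 1.4e-07). In delta-elav,fnenFNE the shares were 1.83, 2.59, 2.99 and 2.34%, which overlapped with wild type (0.50 ± 0.22, adjusted p = 0.50, and 0.36 without the shifted libraries). The difference between delta-elav,fnenFNE and delta-elav was −0.61 ± 0.20 and did not pass (adjusted p = 0.18, and −0.75 without the shifted libraries).

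Microexon mII had 4.36 ± 0.388% in wild type and 5.72 ± 0.505% in delta-elav, and its changes of 0.40 ± 0.15 and 0.36 ± 0.15 did not pass (adjusted p = 0.22 and 0.39). The extension of the first exon gave 0.35 ± 0.31 and −0.21 ± 0.34. At 7–8 h, mI took between 4.33 and 4.58% on average in all 4 groups. The mI bin overlaps the antisense RNA asRNA:PS4. Whether counting used the strand is not given in the sources used here, so their reads may not be separable.

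In hth, the most upstream first exon (3R:10638624-10639568, 945 nt of 5′ UTR) changed between the elav alleles. Its share of hth counts in late embryos was 0.956, 0.917, 1.01 and 0.885% in wild type, 0.528, 0.623, 0.602 and 0.639% in delta-elav and 0.972, 0.999, 1.02 and 1.08% in elavmin. The delta-elav libraries lay below both others. Usage fell by 0.65 ± 0.16 in delta-elav (adjusted p = 0.0027) and differed between elavmin and delta-elav by 0.76 ± 0.16 (adjusted p = 0.0012). The first call was lost without replicate 1 of delta-elav (−0.60) and without replicate 3 of wild type (−0.62), and its adjusted p ranged from 0.00031 to 0.032. The mean in delta-elav,fnenFNE was 0.684 ± 0.154%, with a change of −0.46 ± 0.17 that did not pass (adjusted p = 0.27), and −0.21 without the shifted libraries. This exon overlaps the antisense RNA asRNA:CR44018, with the same limit on strand.

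The same exon separated the stages. It took 0.0495 ± 0.0187% of hth counts in the 7–8 h control, 0.943 ± 0.0554% in wild-type late embryos and 4.27 ± 0.384% in wild-type heads, and the step from late embryos to heads was 2.17 ± 0.16 on the log2 scale (adjusted p = 2.5e-39). Between wild-type heads and late embryos, 14.5% of all bins tested were called. Of 82 bins of the 9 genes tested there, 5 were called. The others were a coding bin of hth with −1.16 ± 0.27, an alternative 3′ UTR bin of hth with 0.61 ± 0.16, the next 5′ UTR bin of hth with −0.38 ± 0.12 and the first exon of Ubx with −2.85 ± 0.68, the last from 13 to 17 Ubx counts in each head library.

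**Figure D4:**
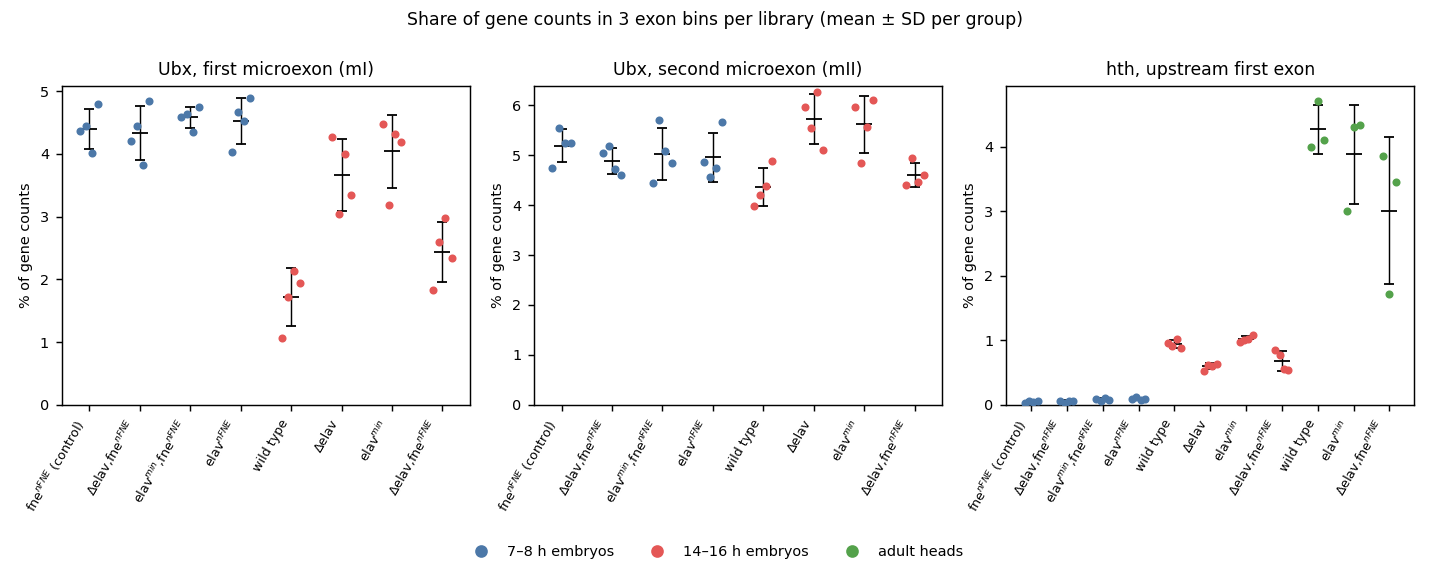
Share of gene counts (percent, vertical axis) on the Ubx microexons mI and mII and on the upstream first exon of hth in every library, with the mean and SD of each group. Among embryos, wild type at 14–16 h has the lowest mean mI share (1.72%), and the hth exon rises from about 0.05% at 7–8 h to 4.27% in wild-type heads.

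Counted over all their bins, the 9 genes had 6 of 83 tested bins called in delta-elav late embryos, 4 of 83 in elavmin and 0 of 83 in delta-elav,fnenFNE, beside the shares of all bins given above. Between mutants there were 1 of 83 (elavmin against delta-elav) and 4 of 83 (delta-elav,fnenFNE against delta-elav). Distal bins of deposited neuronal 3′ UTRs made up 4 of the calls in delta-elav, 3 in elavmin and all 4 between delta-elav,fnenFNE and delta-elav. The study chose these regions partly on the same libraries, so these counts are no independent excess over all bins. In heads there were 1 of 42 and 0 of 43, and at 7–8 h there were 2 of 83 in delta-elav,fnenFNE, 1 of 83 in elavmin,fnenFNE and 0 of 83 in elavnFNE. The comparisons with 0 bins called by edgeR each had 3 bins under an unadjusted p of 0.05.

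In delta-elav late embryos 1 of the 9 was called (22.7% of all genes tested), in elavmin 3 (29.7%) and in delta-elav,fnenFNE 1 (25.6%), so that the shares of the 9 genes were near or below those of all genes. Ubx was the gene called in all 3. Its CPM was 58.0, 62.6, 56.1 and 61.0 in wild type, 53.2, 50.4, 55.8 and 49.6 in delta-elav, 48.4, 45.3, 50.1 and 48.1 in elavmin and 69.4, 64.3, 72.8 and 67.1 in delta-elav,fnenFNE. Both elav mutants thus lay below every wild-type library and delta-elav,fnenFNE above. The log2 fold changes were −0.18 ± 0.05 (adjusted p = 0.030), −0.30 ± 0.05 (adjusted p = 0.00072) and 0.20 ± 0.05 (adjusted p = 0.018).

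The size of the Ubx difference depended on its distal bins. With the distal bins left out of the totals, Ubx had −0.04 (adjusted p = 0.65) in delta-elav and 0.16 (adjusted p = 0.050) in delta-elav,fnenFNE and was no longer called, whereas in elavmin it remained (−0.19). The call in delta-elav was also lost without replicate 1 (−0.20) or 4 (−0.16) of delta-elav and without replicate 2 (−0.16) or 4 (−0.17) of wild type, and the adjusted p ranged from 0.013 to 0.65. The call in delta-elav,fnenFNE was lost without its replicate 3 (0.17), without replicate 3 of wild type (0.18) and without both shifted libraries (0.17), with adjusted p from 0.0080 to 0.086. Between delta-elav,fnenFNE and delta-elav, Ubx was the gene called (0.39 ± 0.06, adjusted p = 0.0039, 4.79% of all genes called), and without distal bins it was not (0.21, adjusted p = 0.076, in a range from 1.5e-06).

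In elavmin late embryos abd-A and Antp were called beside Ubx. The abd-A level was 158.8, 148.6, 158.0 and 158.5 CPM against 178.5, 172.6, 166.3 and 171.1 in wild type (−0.14 ± 0.04, adjusted p = 0.018). It was not called with distal bins left out (−0.09), without replicate 1 of wild type (−0.12) or when all late groups were fitted together, and the adjusted p ranged from 0.0066 to 0.081. Antp had 74.8, 76.1, 75.7 and 75.7 CPM against 87.5, 85.5, 81.6 and 77.8 (−0.13 ± 0.04, adjusted p = 0.039). Its call was lost without any single library of either group except replicate 4 of wild type, in a range of the log2 fold change from −0.16 to −0.10. Against delta-elav, with 87.9, 95.7, 90.9 and 87.2 CPM, Antp in elavmin was lower by −0.25 ± 0.04 (adjusted p = 0.0029, 16.3% of all genes called), and this call held under every alternative tried. The cofactors hth and exd, and lab, Dfd, Scr and Abd-B, were called by edgeR's main test in no comparison of late embryos. Between elavmin and delta-elav, Scr (−0.16 ± 0.05, adjusted p = 0.057) was called by DESeq2 (adjusted p = 0.036), with DESeq2 size factors, when all late groups were fitted together and without replicate 4 of elavmin (−0.21), and Dfd (−0.19 ± 0.08, adjusted p = 0.15) without replicate 3 of elavmin (−0.26). The adjusted p ranged from 0.033 to 0.14 for Scr and from 0.044 to 0.32 for Dfd.

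In heads no gene of the 9 was called in elavmin (20.2% of all genes tested were called by edgeR), and 7 of the 9 were tested. DESeq2 called 0 as well. Only hth had an unadjusted p under 0.05 (−0.14 ± 0.06, adjusted p = 0.14). Scr (0.26 ± 0.13, adjusted p = 0.19) was called when replicate 1 of elavmin was left out. In delta-elav,fnenFNE, 3 genes of the Antennapedia complex rose, beside 28.3% of all genes called. The Antp total includes bins shared with CG46458. Dfd had 44.6, 56.6 and 52.0 CPM against 35.6, 35.1 and 33.9 in wild type (0.53 ± 0.10, adjusted p = 0.0036). Scr had 29.8, 32.7 and 30.5 CPM against 18.6, 20.0 and 19.8 (0.65 ± 0.08, adjusted p = 0.00048). Antp had 4.35, 5.50 and 5.48 CPM against 3.60, 2.87 and 2.78 (0.70 ± 0.18, adjusted p = 0.019), and its call was lost without replicate 3 of delta-elav,fnenFNE (0.65) or replicate 2 (0.65) or 3 (0.63) of wild type, with adjusted p from 0.0080 to 0.077.

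None of these 3 genes overlapped between the groups. The levels of lab did not overlap either, though edgeR did not call it (0.29 ± 0.14, adjusted p = 0.14). The share of all genes without overlap was not computed. Dfd, Scr and Antp stayed called, in the same direction, without the shifted replicate 2 of delta-elav,fnenFNE. In the same heads the photoreceptor list was at 182–214 CPM against 48875–50909 in wild type and the muscle list at 12975–13247 against 7768–9466, the fat body list at 4104–4993 against 2039–3094 and the glia list at 821–949 against 688–727, and their part in the change was not tested. List sums are scaled by the library total, whereas CPM of the 9 genes is scaled within the stage. The posterior genes were at or near 0 in all heads. In wild type and elavmin abd-A had 0 counts in every library, and in delta-elav,fnenFNE it had 5, 0 and 4. Abd-B had 4, 1 and 0 counts in elavmin and 3, 1 and 1 in delta-elav,fnenFNE, and Ubx had 5 to 24 counts in any head library.

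At 7–8 h, the log2 fold changes of all 9 genes lay above 0 in each of the 3 mutant groups, which share the control. Medians over all genes tested were −0.015 in delta-elav,fnenFNE, −0.0003 in elavmin,fnenFNE and −0.013 in elavnFNE. The share of all genes above 0 was not counted, and most changes of the 9 genes were not called. In delta-elav,fnenFNE abd-A was called (0.27 ± 0.05, adjusted p = 0.021, 2.96% of all genes called), with 344.0, 323.4, 374.4 and 340.3 CPM against 277.1, 304.4, 286.6 and 274.5. This call was lost without replicate 1 of delta-elav,fnenFNE (0.27) and without replicate 1 (0.26) or 3 (0.27) of the control, with adjusted p from 0.00025 to 0.088. Abd-B was called in elavmin,fnenFNE (0.40 ± 0.07, adjusted p = 0.011, 6.4% of all genes called) and in elavnFNE (0.32 ± 0.06, adjusted p = 0.0071, 9.71% of all genes called) and held under every alternative at the threshold of 0.05. Its CPM was 146.9, 158.7, 155.8 and 148.5 in the control, 168.0, 221.3, 207.1 and 202.8 in elavmin,fnenFNE and 167.9, 191.3, 190.6 and 210.2 in elavnFNE.

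In elavnFNE exd was also called (0.19 ± 0.05, adjusted p = 0.037), with 357.5 to 415.4 CPM against 336.4 to 342.3. It was not called without replicate 2 (0.16) or 3 (0.20) of elavnFNE or replicate 1 (0.19), 2 (0.18) or 3 (0.20) of the control, and the adjusted p ranged from 0.0032 to 0.10. No gene of the 9 was called by edgeR between elavmin,fnenFNE and delta-elav,fnenFNE (2.52% of all genes called) or between elavnFNE and delta-elav,fnenFNE (7.15%), where 2 and 1 of the 9 had an unadjusted p under 0.05 and DESeq2 called 1 and 0. In the second pair log2 fold changes ran from −0.12 (Scr) to 0.24 (lab). In the first pair, abd-A (−0.15 ± 0.05) had an adjusted p of 0.12 and passed with DESeq2 (0.042), in a range from 0.042 to 0.26.

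**Figure D5:**
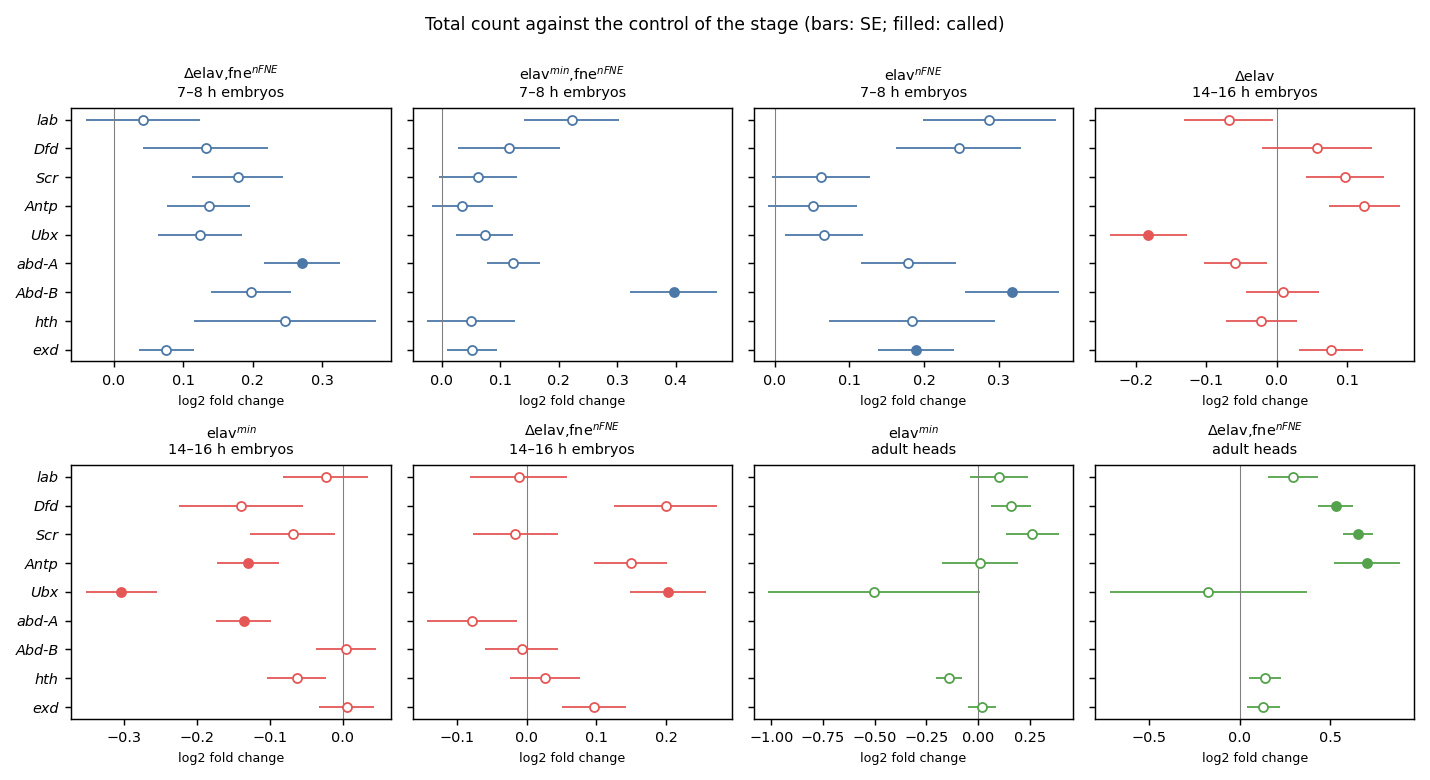
Log2 fold change of the total count of each gene against the control of its stage (horizontal axis, each panel with its own range), with the SE as a bar and filled points for an adjusted p under 0.05. Changes in late embryos run from −0.30 to 0.20 for Ubx, and the largest called changes are those of Dfd, Scr and Antp in delta-elav,fnenFNE heads (0.53, 0.65 and 0.70).

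The change in total count was also compared between stages. For delta-elav,fnenFNE, the effect on Scr was higher in heads than in late embryos by 0.67 ± 0.10 (adjusted p = 0.00013) and that on Antp by 0.55 ± 0.14 (adjusted p = 0.0096), where 22.9% of all genes were called. The effect on Dfd differed by 0.33 ± 0.12 and did not pass (adjusted p = 0.054). For abd-A the effect at 7–8 h was higher than in late embryos by 0.35 ± 0.09 (adjusted p = 0.020, 13.2% of all genes called). For elavmin, heads against late embryos, no gene of the 9 with more than 4 counts in a head library was called (17.6% of all genes).

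Other genes of the pathway were counted in lists, and their counts stand beside the shares of all genes called, 22.7% in delta-elav, 29.7% in elavmin and 25.6% in delta-elav,fnenFNE late embryos, 20.2% and 28.3% in elavmin and delta-elav,fnenFNE heads, and 2.96, 6.4 and 9.71% in delta-elav,fnenFNE, elavmin,fnenFNE and elavnFNE at 7–8 h. Among the other TALE homeobox genes, achi, ara, caup, mirr and vis, achi fell by 0.79 ± 0.13 in delta-elav, 0.76 ± 0.15 in elavmin and 0.86 ± 0.17 in delta-elav,fnenFNE late embryos and by 0.47 ± 0.13 in elavmin heads. In elavmin late embryos caup (−0.28 ± 0.04) and mirr (−0.12 ± 0.04) fell too, so that 3 of 5 were lower there. At 7–8 h in elavnFNE 3 of 5 were higher, caup by 0.26 ± 0.05, ara by 0.28 ± 0.07 and mirr by 0.24 ± 0.06, with a list median of 0.26 against −0.01 for all genes.

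Polycomb group proteins keep Hox genes silent and trithorax group proteins keep them active. Of 15 Polycomb group genes tested, 3 rose and 1 fell in delta-elav late embryos, 2 rose and 3 fell in elavmin and 1 fell in delta-elav,fnenFNE, with list medians of 0.05, 0.03 and 0.01 beside 0.01, 0.00 and 0.00 for all genes. The gene ph-d fell in each of the 3 (−0.22 ± 0.05, −0.46 ± 0.06 and −0.29 ± 0.09) and again in elavmin,fnenFNE at 7–8 h (−0.36 ± 0.05). The near-identical neighbour ph-p rose in delta-elav (0.23 ± 0.05), and reads of this pair may be split between them. Of 12 trithorax group genes, 5 rose in delta-elav late embryos, among them trx (0.28 ± 0.06), kis (0.23 ± 0.06) and fs(1)h (0.19 ± 0.05), with a list median of 0.11. None was called in elavmin and 2 rose in delta-elav,fnenFNE, mor (0.32 ± 0.05) and Utx (0.20 ± 0.07). No gene of either list was called in a head comparison with wild type.

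Among 10 genes known as Hox targets, ct rose in delta-elav late embryos (0.24 ± 0.06) and the cell death gene rpr rose in elavmin (0.34 ± 0.11) and in delta-elav,fnenFNE (0.54 ± 0.15). In delta-elav,fnenFNE heads dpp rose by 0.59 ± 0.08, whereas ct (−0.89 ± 0.12), salm (−0.76 ± 0.12) and fkh (−0.32 ± 0.09) fell. In elavmin heads salm (−0.66 ± 0.11) and fkh (−0.26 ± 0.08) fell. At 7–8 h, ems and grn rose in all 3 mutant groups, by 0.25 to 0.41. Of the other genes of the Antennapedia complex, pb, zen, zen2, bcd and ftz, no more than 3 had enough counts, and ftz alone was called against a control of its stage, in delta-elav,fnenFNE heads (2.15 ± 0.45).

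Over the means of the 11 groups, the genes whose log2 level followed each member most closely among 8781 genes were found by Pearson's r, as a description. The points share stages, so r can be close to 1 for any gene with a similar change between the stages. The highest values were 0.993 for hth (sty), 0.997 for exd (Camp), 0.995 for lab (Ptx1), 0.987 for Dfd (Ehbp1), 0.994 for Scr (dpp), 0.998 for Antp (RpL7), 0.999 for Ubx (org-1), 0.999 for abd-A (LanA) and 0.999 for Abd-B (LanB1). The second gene for Antp was abd-A itself (0.998).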

How the data were processed

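The authors prepared stranded mRNA-seq libraries, aligned reads to the dm6 genome with STAR and deposited counts of reads per exon bin (tools credited to the study's methods and the submitters' processing notes, which also list Subread and featureCounts). The paper names HTSeq for exon counts, and how a read that overlaps several bins was counted is not stated. If it was counted in each, gene totals hold such reads more than once. The deposited values are raw counts, and the deposited BED coordinates give 271 neuronal 3′ UTRs, a unit of another kind. The tables also hold the authors' own fold changes, p-values and normalized means, and separate lists of 3′ UTR targets were deposited; none of these was used. Of the lines, 78 continuation lines were left out, and 19 columns that recur between tables were identical. A single entry can merge overlapping genes (626 of 17027), but none of the 9 genes was merged.

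Bin counts were summed to gene totals. Totals were tested with edgeR 4.0.16 (TMM scaling, filterByExpr, robust quasi-likelihood, the 2 groups compared only, adjusted p under 0.05). Bin usage was tested with edgeR's diffSpliceDGE over all bins (adjusted p under 0.01, its SE derived from the p-value), and stage differences as an interaction. Adjustment was by Benjamini-Hochberg over all features. Distal bins overlapped a neuronal 3′ UTR by at least 0.5 of their length. Coverage was called shifted above 0.2 on the log2 scale. Alternatives used DESeq2 1.42.0 and limma 3.58.1 in R 4.3.3. Tests were checked on simulated data. Depth was 17668742 to 51377771 counts per library; SDs between libraries include counting error, and limits from 3 counts cover counting error only.

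The 9 genes and all lists were chosen with earlier results of these data known. All 9 were examined in every comparison and those called, or close to it, are named, as are up to 3 genes of each pathway list with the smallest adjusted p and, by likeness, the nearest genes by Pearson's r among those with a mean of at least 5 CPM. Sequences came from RefSeq's Release 6 genome.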

Additional observations from a re-analysis of the deposited data

Results flagged for a closer look

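In 144 sets of 4 libraries, 6 had a highest or lowest library far from the other 3, where chance gives about 1 in 20. For the hth distal share at 7–8 h these were replicate 3 of the fnenFNE control (0.462% against 0.222–0.243%), replicate 3 of delta-elav,fnenFNE (0.0314% against 0) and replicate 2 of elavnFNE (0.1998% against 0.0963–0.113%). In the delta-elav,fnenFNE set the other libraries were all at 0, so any count would be flagged and the rate of 1 in 20 does not apply. Replicate 2 of elavnFNE also stood apart in Scr, with 74.1 CPM against 65.6–66.6 and a distal share of 60.8% against 56.5–57.1%. For abd-A, replicate 2 of elavmin late embryos had 148.6 CPM against 158.0–158.8.

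The effect of a genotype differed between stages in 7 tests of the difference itself. For hth distal bin usage the log2 difference was 2.08 for elavmin (heads against late embryos) and −4.88 for delta-elav,fnenFNE (7–8 h against late embryos), the latter from 0 to 4 counts in each mutant library and thus no size. For totals in delta-elav,fnenFNE it was 0.67 for Scr and 0.55 for Antp (heads against late embryos) and 0.35 for abd-A (7–8 h against late embryos). The last 2, 4.69 for abd-A in delta-elav,fnenFNE and 4.20 for Abd-B in elavmin (heads against late embryos), rest on at most 5 counts in a head library and on fitted values for wild-type heads at 0, so they give no size.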

How the results depend on the processing

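No result called in the main test or in an alternative changed direction between them. Changes that were not called could do so. The exd distal bin in delta-elav,fnenFNE heads had 1.05, and −0.19 without the shifted library. The late-embryo calls of hth, abd-A, Abd-B and Ubx distal usage against wild type, and of the Ubx microexon mI, held in all 13 alternatives each. Among counts of the 9 genes called by total count, leaving the distal bins out gave 0 (from 1) in delta-elav, 1 (from 3) in elavmin and 0 (from 1) in delta-elav,fnenFNE late embryos, and 0 (from 1) between delta-elav,fnenFNE and delta-elav. An adjusted p under 0.01 gave 0, 1 and 0 in the same late groups against wild type, 0 (from 1) in delta-elav,fnenFNE and in elavmin,fnenFNE and 1 (from 2) in elavnFNE at 7–8 h, and 0 (from 1) stage differences for elavmin (heads) and for delta-elav,fnenFNE (7–8 h). DESeq2's Wald test gave 2 (from 1) in delta-elav,fnenFNE late embryos, 2 (from 1) in delta-elav,fnenFNE and 4 (from 2) in elavnFNE at 7–8 h, 2 (from 1) between elavmin and delta-elav and 1 (from 0) between elavmin,fnenFNE and delta-elav,fnenFNE. A fit of all groups of a stage gave 2 (from 1) in delta-elav,fnenFNE late embryos and between elavmin and delta-elav, where DESeq2 size factors also gave 2. Without the shifted libraries the late delta-elav,fnenFNE count was 0.

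The replicate letters do not pair the samples (correlations of same-lettered deviations from −0.39 to 0.35). A replicate block gave 0 (from 1) in delta-elav late embryos, 0 (from 1) in delta-elav,fnenFNE and 1 (from 2) in elavnFNE at 7–8 h, and 2 (from 1) between elavmin and delta-elav. Leaving out single libraries gave 0 to 1 in delta-elav, 1 to 3 in elavmin and 0 to 2 in delta-elav,fnenFNE late embryos, 0 to 1 in elavmin heads, 0 to 1 in delta-elav,fnenFNE and 1 to 2 in elavnFNE at 7–8 h, and 1 to 2 between elavmin and delta-elav.

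Among distal bins called, elavmin heads had 0 (from 1) when all groups were fitted and 0 to 1 without single libraries, delta-elav,fnenFNE at 7–8 h had 1 to 2 without single libraries, and delta-elav,fnenFNE against delta-elav had 2 (from 4) without shifted libraries. Between elavnFNE and delta-elav,fnenFNE it was 1 (from 0) with DESeq2 size factors, without a filter or at an adjusted p under 0.05, and 2 when all groups were fitted. Between elavmin,fnenFNE and delta-elav,fnenFNE it was 1 (from 0) at 0.05. Single libraries were not left out of bin tests between mutants or between wild-type stages.

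With the last exon as denominator (a choice added once the data had been seen), the log2 ratio of mean distal shares of hth was −2.73 in delta-elav, −2.50 in elavmin and 0.18 in delta-elav,fnenFNE heads, and that of Ubx was −0.24 and −0.13 in the late mutants, or −0.58 and −0.42 per base. Scaled by total count, 7 of 99 levels moved by over 1 SD: lab (5.92 CPM) and Scr (32.6) in delta-elav,fnenFNE heads, Dfd (32.9), Scr (18.4), hth (227.6) and exd (146.8) in wild-type heads and Antp (76.6) in elavmin late embryos. The cause of these changes was not tested. Depth limits abd-A, Abd-B and Ubx in heads, with at most 24 counts per library.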
